A study of Homo sapiens with 6 samples.

Results

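The Sin3/HDAC complex is a histone deacetylase corepressor built on the scaffold proteins SIN3A and SIN3B. Described here is the RNA of its SIN3-specific subunits other than FAM60A, namely SIN3A, SIN3B, SAP30, SAP30L, SUDS3, BRMS1, BRMS1L, ARID4A, ARID4B and ING2. They were listed by name, with no threshold on their values, and all 10 were found among the 62754 Ensembl genes of the deposited count table. RNA-seq had been run on 3 control libraries and 3 FAM60A-knockout libraries of HEK293, a line derived from human embryonic kidney. A characteristic in the labels names HEK293T, the derivative that expresses SV40 large T antigen. No drug or time course was involved, and the control label names no guide or vector, so it is not known whether control cells had also been transfected or selected. Knockout cells were a puromycin-selected pool made with Cas9 and guides to 3 regions of FAM60A, so they were not a single clone and may have carried a mixture of alleles. Nothing in the labels says whether the 3 libraries of a group came from separate cultures, so p-values measure the spread between these libraries, which may be technical.

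Sin3 proteins do not bind DNA themselves. Sequence-specific repressors such as the MAD family dock on their paired amphipathic helix domains, and the HDAC interaction domain gathers HDAC1, HDAC2 and the structural subunits, after which acetyl groups are taken off nearby histone tails. Most subunits come as paralogue pairs, so that one complex can hold SIN3A or SIN3B, SAP30 or SAP30L, BRMS1 or BRMS1L, ARID4A or ARID4B, and ING1 or ING2. The comparison asks whether cells that have lost FAM60A carry different amounts of mRNA for the rest of this machinery.

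The guides are shown because they define the knockout group. They are 20-base sequences from the study's table of guides, printed in lower case from 5′ to 3′, and none is capitalized because all bases matched their target.
gRNA 1: gtcagtgaatcgagaactgg
gRNA 2: gtgtcctgcttgtgaaaaga
gRNA 3: agaaagtgaaaactctatct

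On GRCh37, gRNA 1 matched the plus strand of FAM60A at chr12:31451049-31451068, in coding exon 2 of the 6 exons of the canonical transcript. gRNA 2 matched the minus strand at chr12:31448210-31448229 in exon 3, and gRNA 3 the minus strand at chr12:31446797-31446816 in exon 4, both coding. Within the gene spans of the 10 other subunits, the closest site beside an NGG motif had 5 mismatches to a guide (gRNA 2 in ARID4B), and elsewhere the closest had at least 6. The targeted gene, listed under its current symbol SINHCAF (ENSG00000139146), measured 113, 106 and 132 CPM in controls 1, 2 and 3 and 67.5, 66.0 and 61.7 CPM in knockouts 1, 2 and 3. CPM here are counts scaled to a common library size with edgeR's TMM factors, in the usual unit. Its log2 fold change was -0.85 (standard error, SE, 0.11; edgeR adjusted p = 0.00863). That p was 0.0719, 0.0571 and 0.0736 in the fits lacking knockout 1, 2 and 3. Transcripts with small indels would still be counted, so this residual level does not measure how much FAM60A protein remained. The paper reports the knockout of FAM60A from immunoblotting and from qRT-PCR, which were not analysed here.

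Libraries held between 88361827 and 93346824 counts, which gave every subunit at least 755 counts in every library. All 8 HEK293 markers looked at (kidney-progenitor, keratin, vimentin and neurofilament genes) had at least 10 counts in every library. Of 6 matched markers of leukocytes, erythroid cells, hepatocytes, endothelium and fibroblasts, 1 did so (COL1A1, 13.6 to 26.3 CPM), while HBB and COL1A2 stayed at or below 3 counts. Summed over those 6, controls lay between 19.4 and 26.5 CPM and knockouts between 13.7 and 16.2 CPM. The HEK293 markers summed to between 998 and 1720 CPM in controls and to between 794 and 944 CPM in knockouts. The part of these marker differences in the results was not tested.

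Control 3 stood apart from controls 1 and 2. The SD of the log2 CPM difference between controls 1 and 2 was 0.31 over 21031 genes, and it was 0.30 to 0.33 between knockout libraries, but 1.10 and 1.08 between control 3 and controls 1 and 2. Control 3 was 0.82 to 0.87 away from the knockout libraries on the same measure, and controls 1 and 2 were 1.07 to 1.11 away from them. Control 3 was thus about as far from the other controls as the knockouts were, and it lay nearer to the knockouts. Control 3 is therefore shown by itself below, and a second fit that leaves it out is set beside the fit of all 6 libraries.

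The scaffolds came first in the order of roles, and both fell. SIN3A (ENSG00000169375, GRCh37 chr15:75661720-75748183) measured 97.0, 87.3 and 79.6 CPM in the controls and 56.3, 60.4 and 60.8 CPM in the knockouts. All 3 control libraries lay above all 3 knockout libraries, and control 3 was the lowest control. The mean was 88.0 ± 8.75 CPM in controls and 59.2 ± 2.53 CPM in knockouts (SD, n = 3). On the log2 scale the fitted change was -0.57 (SE 0.10, edgeR adjusted p = 0.0185). SIN3B (ENSG00000127511, GRCh37 chr19:16940209-16991164), the paralogue linked to exit from the cell cycle, measured 64.4, 67.2 and 63.6 CPM in the controls. In the knockouts it measured 40.8, 44.8 and 43.8 CPM. Again the groups did not overlap, and here control 3 lay with the other controls. Means were 65.1 ± 1.85 CPM for controls and 43.1 ± 2.08 CPM for knockouts (SD, n = 3), and the fitted log2 change was -0.59 (SE 0.08, edgeR adjusted p = 0.0103). Without control 3 the log2 fold changes were -0.67 for SIN3A and -0.64 for SIN3B. In bulk RNA, fewer cells of a type and less RNA per cell cannot be told apart.

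Both scaffolds fell to about the same degree, so their balance was nearly that of the controls. Summed, SIN3A and SIN3B made up 153 ± 9.20 CPM in controls and 102 ± 4.55 CPM in knockouts (SD, n = 3). SIN3A supplied 60.1%, 56.5% and 55.6% of that sum in controls 1, 2 and 3 and 58.0%, 57.4% and 58.2% in knockouts 1, 2 and 3. The share of each knockout library thus lay within the range of the controls.

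**Figure D1:**
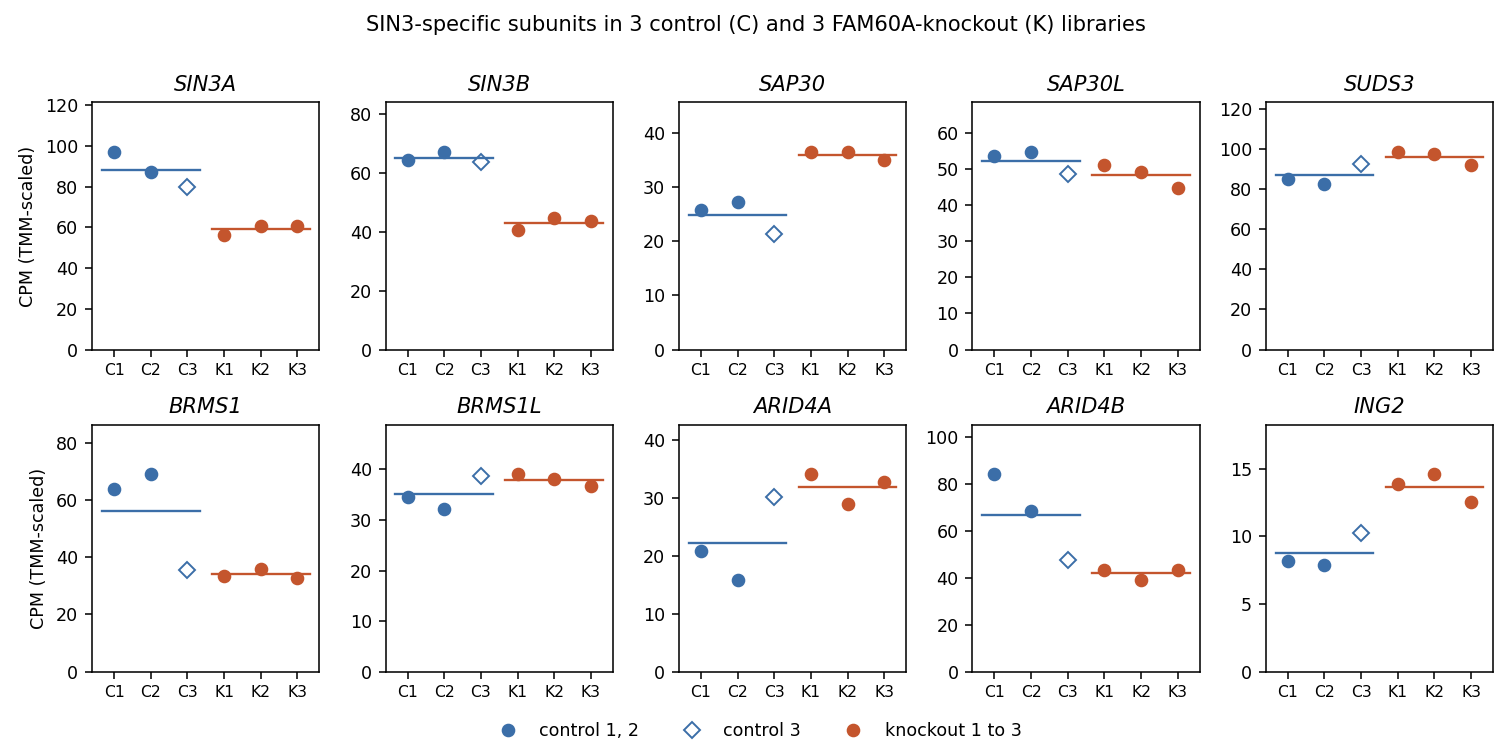
Expression of the 10 subunits in each library, in TMM-scaled CPM on linear axes that start at 0, with controls C1 to C3 in blue (C3 an open diamond), knockouts K1 to K3 in orange, and a line at each group mean. SIN3A and SIN3B are lower and SAP30 and ING2 higher in every knockout library than in any control, whereas for BRMS1, ARID4A and ARID4B control 3 lies near the knockouts.

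SAP30 and SAP30L bind the Sin3 scaffold through a shared SAP30 domain, and SAP30 rose while its paralogue was not called. SAP30 (ENSG00000164105, GRCh37 chr4:174291120-174298683) measured 25.8, 27.3 and 21.3 CPM in the controls against 36.5, 36.4 and 35.0 CPM in the knockouts. The groups did not overlap, and control 3 was the library farthest from the knockouts. Control libraries averaged 24.8 ± 3.11 CPM and knockout libraries 36.0 ± 0.828 CPM (SD, n = 3), and SAP30 changed by 0.54 on the log2 scale (SE 0.12, edgeR adjusted p = 0.0315). Without control 3 the log2 fold change was 0.41. SAP30L (ENSG00000164576, GRCh37 chr5:153825557-153840613) measured 53.6, 54.8 and 48.6 CPM in the controls and 51.1, 49.2 and 44.9 CPM in the knockouts. Control 3 lay below knockouts 1 and 2, so the groups overlapped. Its log2 fold change was -0.11, with a 95% confidence interval from -0.35 to 0.12 (edgeR adjusted p = 0.455). Without control 3 it was -0.19 (edgeR adjusted p = 0.0313).

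SUDS3, BRMS1 and BRMS1L are Sds3-family proteins that bridge the scaffold to the deacetylases, and none was called with all 6 libraries. SUDS3 (ENSG00000111707, GRCh37 chr12:118814360-118855838), the human counterpart of yeast Sds3, measured 85.3, 82.6 and 92.8 CPM in the controls and 98.7, 97.4 and 92.0 CPM in the knockouts. Control 3 lay just above knockout 3, the only overlap between the groups. The log2 fold change was 0.14 (95% confidence interval -0.07 to 0.35, edgeR adjusted p = 0.289). Without control 3 it was 0.16 (edgeR adjusted p = 0.0603), and no fit that left out 1 library called it. BRMS1L (ENSG00000100916, GRCh37 chr14:36295544-36401531) measured 34.6, 32.2 and 38.7 CPM in the controls and 39.1, 38.0 and 36.7 CPM in the knockouts. Its log2 fold change was 0.11 (95% confidence interval -0.14 to 0.36, edgeR adjusted p = 0.492), and with library size without TMM it was -0.000521. Control 3 lay inside the knockout range, and without it the log2 fold change was 0.15 (edgeR adjusted p = 0.0858).

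BRMS1 (ENSG00000174744, GRCh37 chr11:66104804-66112596), first described as a suppressor of breast cancer metastasis, differed from its paralogue. It measured 63.8, 69.1 and 35.5 CPM in controls 1, 2 and 3 and 33.5, 36.0 and 32.9 CPM in the knockouts. Control 3 lay among the knockout libraries, and controls 1 and 2 stood well above all of them. Across all libraries the log2 fold change was -0.72 (SE 0.25, edgeR adjusted p = 0.0933), which did not pass. Without control 3 it was -0.99 (edgeR adjusted p = 2.62e-10), so this library decided the edgeR call. DESeq2 called BRMS1 with all 6 libraries (adjusted p = 0.0477).

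ARID4A and ARID4B carry ARID, Tudor and chromo domains, and ARID4A was first known as a retinoblastoma-binding protein. With all 6 libraries edgeR called neither. ARID4A (ENSG00000032219, GRCh37 chr14:58765222-58840605) measured 20.8, 15.9 and 30.2 CPM in the controls and 34.1, 29.0 and 32.8 CPM in the knockouts. Controls 1 and 2 lay below all knockouts, and control 3 lay above knockout 2. Over 6 libraries its log2 fold change was 0.52 (SE 0.24, edgeR adjusted p = 0.175), and without control 3 it was 0.77 (edgeR adjusted p = 1e-06). ARID4B (ENSG00000054267, GRCh37 chr1:235294949-235491534) was at 84.4, 68.4 and 47.8 CPM in the controls and at 43.2, 39.0 and 43.6 CPM in the knockouts. No control overlapped a knockout, but control 3 was closer to the knockouts than to control 2. Its log2 fold change was -0.67 (SE 0.21, edgeR adjusted p = 0.0713), and without control 3 it was -0.90 (edgeR adjusted p = 1.11e-08). With all 6 libraries ARID4B was also called by DESeq2 (adjusted p = 0.0310) and by edgeR with library size without TMM (adjusted p = 0.0473).

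ING2, whose PHD finger reads trimethylated lysine 4 of histone H3, rose. ING2 (ENSG00000168556, GRCh37 chr4:184426211-184433582) measured 8.22, 7.86 and 10.2 CPM in the controls and 13.9, 14.6 and 12.6 CPM in the knockouts. Every knockout library was above every control, with control 3 the highest control. Mean ING2 was 8.77 ± 1.28 CPM in controls and 13.7 ± 1.04 CPM in knockouts (SD, n = 3), which is 0.64 on the log2 scale (SE 0.16, edgeR adjusted p = 0.0405). Without control 3 the log2 fold change was 0.74.

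With all 6 libraries, then, 4 of 10 subunits were called at an edgeR adjusted p of at most 0.05, beside 16.6% of the 20992 genes tested. SIN3A and SIN3B were lower, beside 8.67% of all tested genes called lower, and SAP30 and ING2 were higher, beside 7.96% called higher. No subunit reached an absolute log2 fold change of 1 with such a p, which 7.06% of tested genes did and which is the threshold in the study's methods. Groups did not overlap for 5 subunits, the 4 called ones and ARID4B, beside 41.6% of tested genes. Without control 3, 8 of 10 were called, all but SUDS3 and BRMS1L, but so were 65.6% of the 21686 genes then tested. The median log2 fold change over the 10 subunits was -0.0014, beside -0.0081 over all genes tested, and the median absolute log2 fold change was 0.55 beside 0.39. The list thus had no shared direction. Each of the 4 calls was kept without control 3, but leaving out other libraries ended them. The edgeR adjusted p of SIN3A was 0.0593 and 0.0690 without control 1 or 2 and 0.113, 0.0811 and 0.0964 without knockout 1, 2 or 3. SIN3B kept its call without control 1 (edgeR adjusted p = 0.0428), while without control 2 the value was 0.0520 and without knockout 1, 2 or 3 it was 0.0826, 0.0571 and 0.0770. For SAP30 these values were 0.0994 and 0.0710 without control 1 or 2 and 0.138, 0.111 and 0.121 without knockout 1, 2 or 3. For ING2 they were 0.124 and 0.135 without control 1 or 2 and 0.168, 0.149 and 0.130 without knockout 1, 2 or 3. The directions of all 4 were the same in every such fit. With library size without TMM, edgeR called neither SAP30 (adjusted p = 0.0533) nor ING2 (adjusted p = 0.0600), and without a filter it also called neither (0.0546 and 0.0680). The lowest edgeR adjusted p over the 13 alternatives was in each case the one without control 3, at 1.36e-07 for SIN3A, 8.57e-05 for SAP30 and 5.05e-07 for ING2, and at 1.89e-07 for SIN3B.

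**Figure D2:**
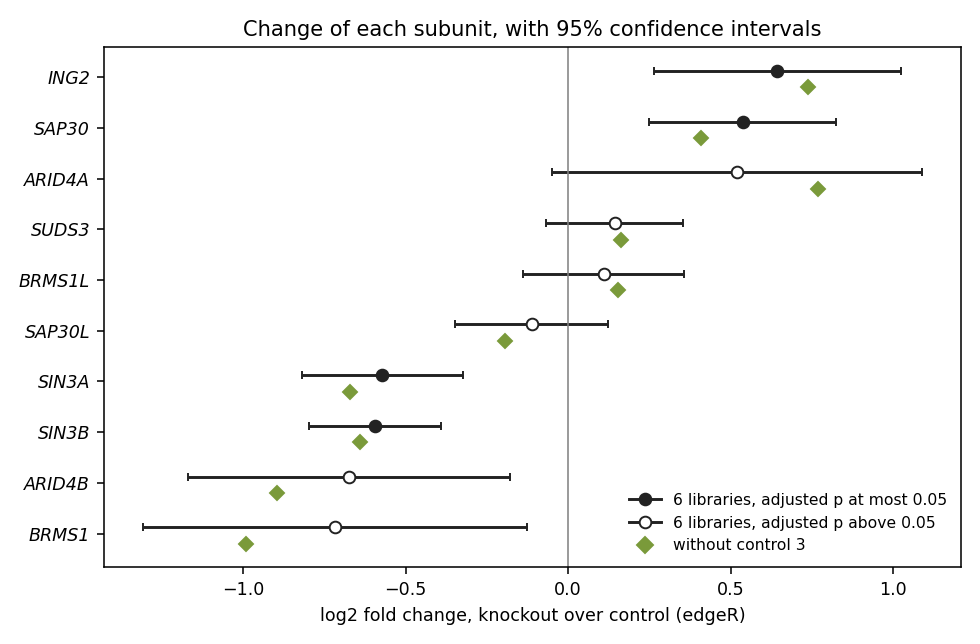
Log2 fold change of each subunit, knockout over control, from edgeR with 95% confidence intervals over 6 libraries (circles, filled where the adjusted p is at most 0.05) and without control 3 (diamonds). ING2 and SAP30 lie to the right of 0 and SIN3A and SIN3B to the left, while leaving out control 3 moves BRMS1 from -0.72 to -0.99, ARID4B from -0.67 to -0.90 and ARID4A from 0.52 to 0.77.

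Set against the mean of controls 1 and 2, control 3 differed from subunit to subunit. For BRMS1 it was lower by as much as the knockouts were, with log2 differences of -0.90 for control 3 and -0.96 for the knockout mean. For ARID4A both were higher, at 0.73 and 0.81. For ARID4B both were lower, at -0.67 and -0.86, with control 3 still above every knockout library. Both differences were small and nearly equal for SAP30L (-0.16 and -0.16), BRMS1L (0.21 and 0.18) and SUDS3 (0.14 and 0.19). For SIN3B, control 3 differed from controls 1 and 2 by -0.05 and the knockouts by -0.61, and for SIN3A by -0.21 and -0.64. ING2 lay between, at 0.35 and 0.76. For SAP30 the signs were opposite, with control 3 at -0.32 and the knockouts at 0.44. The cause was not tested.

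**Figure D3:**
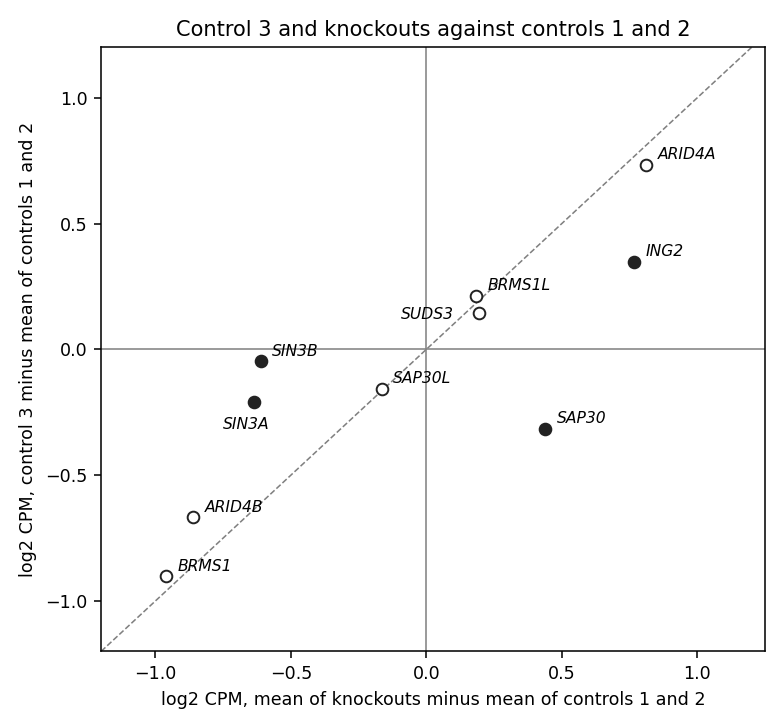
Each subunit by the difference of the knockout mean (x axis) and of control 3 (y axis) from the mean of controls 1 and 2, in log2 CPM, with filled circles for subunits called over 6 libraries and a dashed line where both differences are equal. BRMS1, ARID4A, SAP30L, BRMS1L and SUDS3 lie near the dashed line and ARID4B above it, SIN3B lies near the horizontal line at 0, and SAP30 is the only one of the 10 in which control 3 and the knockouts differ in opposite directions.

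Balance within a paralogue pair was measured as the log2 ratio of counts within a library, which does not depend on depth or scaling. For 3 libraries against 3, a two-sided exact permutation test cannot give p below 0.1, and over the 5 pairs compared the smallest Benjamini-Hochberg adjusted value was 0.167, so no pair could pass. The ratio of SIN3A to SIN3B counts was 1.51, 1.30 and 1.25 for controls and 1.38, 1.35 and 1.39 for knockouts, a log2 difference of 0.03 (exact permutation p = 0.9) that was -0.03 without control 3. SAP30 to SAP30L counts stood at 0.482, 0.498 and 0.439 in the controls and at 0.714, 0.740 and 0.781 in the knockouts. The shift towards SAP30 was 0.66 on the log2 scale, with no overlap (exact permutation p = 0.1), and 0.60 without control 3. The BRMS1 to BRMS1L ratio was 1.85 and 2.15 in controls 1 and 2 but 0.918 in control 3, and 0.858, 0.946 and 0.897 in the knockouts. Here control 3 lay inside the knockout range, and the log2 difference of -0.77 (exact permutation p = 0.2) became -1.15 without it. ARID4A to ARID4B counts moved most, from 0.247 and 0.232 in controls 1 and 2 and 0.632 in control 3 to 0.790, 0.744 and 0.751 in the knockouts. That log2 difference was 1.20 with no overlap (exact permutation p = 0.1) and 1.67 without control 3. For ING2 to ING1 the ratio was 0.436, 0.438 and 0.481 in controls and 0.618, 0.676 and 0.619 in the knockouts, a log2 difference of 0.50 with no overlap (exact permutation p = 0.1) and 0.54 without control 3.

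**Figure D4:**
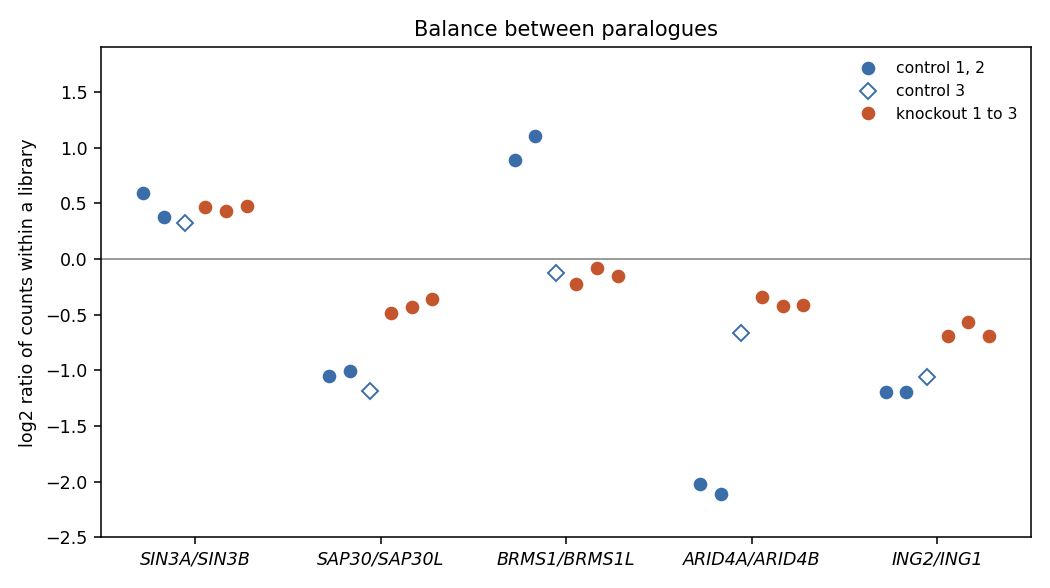
Log2 ratio of the counts of 2 paralogues within each library, with controls in blue (control 3 an open diamond) and knockouts in orange. SIN3A/SIN3B lies within the control range in the knockouts, SAP30/SAP30L, ARID4A/ARID4B and ING2/ING1 are higher in all knockouts, and BRMS1/BRMS1L of control 3 lies among the knockouts.

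The bridging subunit SUDS3 was also set against its scaffolds, a ratio chosen after its values were seen. SUDS3 counts divided by the summed SIN3A and SIN3B counts gave 0.528, 0.535 and 0.648 for controls and 1.02, 0.926 and 0.880 for knockouts. All knockouts lay above all controls, with a log2 difference of 0.73 (exact permutation p = 0.1) that was 0.82 without control 3. The denominator sums scaffolds already seen to fall, so this separation is no further support. SINHCAF over the same sum, also not planned, overlapped between the groups. Its log2 difference was -0.26 (exact permutation p = 0.2), and -0.12 without control 3.

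Levels can be compared between genes only per length. Per kilobase of canonical transcript, the control order was BRMS1 (39.4 ± 12.7 CPM per kb), SAP30 (22.6 ± 2.83), SUDS3 (18.4 ± 1.12), BRMS1L (13.3 ± 1.25), SIN3A (13.1 ± 1.30), SIN3B (12.9 ± 0.368), ARID4B (11.1 ± 3.05), SAP30L (8.46 ± 0.534), ARID4A (3.80 ± 1.24) and ING2 (3.57 ± 0.519), each as mean ± SD with n = 3. BRMS1L, SIN3A and SIN3B could not be separated by their spread, nor could ARID4A and ING2, and ARID4B overlapped both of its neighbours. SAP30 and SUDS3 overlapped as well, at 19.4 to 24.9 and 17.5 to 19.6 CPM per kb in controls. BRMS1 ranged from 25.0 to 48.5 CPM per kb in controls, with its lowest value in control 3. In the knockouts SAP30 came first at 32.8 ± 0.755 CPM per kb and BRMS1 next at 24.0 ± 1.15 CPM per kb. SIN3A and SIN3B, at 8.80 ± 0.376 and 8.55 ± 0.413 CPM per kb, came after SUDS3 (20.3 ± 0.752) and BRMS1L (14.4 ± 0.463). With the union of all annotated exons as length, chosen after seeing the data, BRMS1, SAP30, SUDS3 and BRMS1L stayed the first 4 in controls, while SIN3A moved from rank 5 to rank 7 and SAP30L from rank 8 to rank 5.

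The sequences just upstream of the start sites are shown for SIN3A, a scaffold that fell, and for SAP30 and SAP30L, the pair of which SAP30 rose. Each is the 250 bases before the RefSeq start on GRCh38.p14, read 5′ to 3′ on the gene's strand. The bases after that start were found within the first 400 bases of the canonical transcript, so the canonical start may differ from it. Capitals mark exact matches on either strand to the GC box GGGCGG or the CCAAT box, and none of these windows holds the E-box CACGTG that MAD proteins bind.
SIN3A, chr15:75451691-75451940, minus strand: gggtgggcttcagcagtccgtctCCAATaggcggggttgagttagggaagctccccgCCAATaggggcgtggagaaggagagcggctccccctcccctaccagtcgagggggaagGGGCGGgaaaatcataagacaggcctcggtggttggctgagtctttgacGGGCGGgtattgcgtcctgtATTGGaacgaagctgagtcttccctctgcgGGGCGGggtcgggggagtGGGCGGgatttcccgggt
SAP30, chr4:173370704-173370953, plus strand: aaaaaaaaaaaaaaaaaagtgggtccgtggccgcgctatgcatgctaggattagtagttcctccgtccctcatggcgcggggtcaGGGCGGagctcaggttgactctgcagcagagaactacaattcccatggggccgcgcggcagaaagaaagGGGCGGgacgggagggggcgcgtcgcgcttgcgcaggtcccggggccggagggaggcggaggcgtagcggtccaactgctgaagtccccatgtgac
SAP30L, chr5:154445747-154445996, plus strand: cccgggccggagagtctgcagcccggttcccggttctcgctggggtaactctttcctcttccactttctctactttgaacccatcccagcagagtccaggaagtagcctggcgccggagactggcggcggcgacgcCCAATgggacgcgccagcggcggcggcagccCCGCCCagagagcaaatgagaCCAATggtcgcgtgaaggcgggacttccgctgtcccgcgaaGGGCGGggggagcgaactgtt

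The printed SIN3A window held 4 GC boxes and 3 CCAAT boxes, the SAP30 window 2 GC boxes and no CCAAT box, and the SAP30L window 2 of each. Among the 250-base windows of 27305 promoters, 42.3% held GGGCGG, 33% held CCAAT and 6.49% held CACGTG. GC content was 63.6% for SIN3A, 62% for SAP30 and 66.4% for SAP30L, beside a median of 58% over all promoters. A match of letters is a description of the window and not a site in use. By the same rule, the windows listed for SIN3B, ARID4B and ING2 did not match their canonical transcripts and are not printed. The same held for another SIN3A window, at chr15:75455816-75456065, with 1 GC box and 1 CCAAT box.

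The 5 tested genes on each side of every subunit were also read along GRCh37. All 10 neighbours of SIN3B had a negative log2 fold change, with a median of -0.66, and 3 were called lower. Around ARID4B all 10 were negative too, with a median of -0.77 and 3 called lower, among them GGPS1 and IRF2BP2. Around BRMS1L none was negative, the median was 0.62 and 3 were called higher. Of 20659 genes with 10 tested neighbours, 6.3% had neighbours all of one sign and 19% had at least 3 called one way. SIN3A had 3 neighbours called lower and 7 negative, ARID4A had 3 called higher, and each other subunit had at most 1 called.

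Reads of overlapping or copied genes could move between neighbours in counting. ARID4B shares 138 exon bases with GGPS1 on the opposite strand, which held 2291, 2317 and 2137 counts in controls and 1175, 1234 and 1123 in knockouts, and it shares 1429 bases with RBM34 on the same strand, with 18 to 61 counts. SIN3A overlaps the antisense gene ENSG00000260274, with 240 to 417 counts against 4738 to 9432 of its own. The processed pseudogene SUDS3P1 held 605 to 1067 counts against 7935 to 8968 for SUDS3, and SAP30P1 held 25 to 39. For the targeted gene, the pseudogene SINHCAFP2 held 605 to 776 counts in controls and 123 to 161 in knockouts. SINHCAFP1 held 94 to 133 and 18 to 30, and SINHCAFP3 held 0 to 3 in all libraries. The cause of these lower counts was not tested. Antisense transcripts overlapping SAP30 (SAP30-DT), BRMS1L (ENSG00000258938) and ARID4B (ENSG00000289114) held 47 to 73, 3 to 9 and 2 to 10 counts.

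The remaining Sin3/HDAC subunits, among them the deacetylases and histone chaperones shared with other complexes, were looked at as a list of 8 genes besides FAM60A. SAP25 had 0 counts in every library, and 7 were tested. Of those 7, 1 was called with all 6 libraries and it rose, beside 16.6% of all tested genes called and 7.96% called higher. That gene, SAP18, also joins the splicing-linked ASAP complex. SAP18 averaged 159 ± 13.0 CPM in controls and 257 ± 5.18 CPM in knockouts (SD, n = 3), up by 0.69 on the log2 scale (SE 0.09, edgeR adjusted p = 0.00949). Control 3 held 172 CPM of SAP18, against 146 and 159 CPM in controls 1 and 2, and without it the log2 fold change was 0.72. Without knockout 1, 2 or 3 the edgeR adjusted p was 0.0724, 0.0573 and 0.0728. The other 6 were not called, namely the deacetylases HDAC1 (-0.11) and HDAC2 (-0.01), the histone chaperones RBBP4 (0.38) and RBBP7 (-0.10), SAP130 (-0.53) and ING1 (0.15), with log2 fold changes in parentheses. The median log2 fold change of the 7 was -0.01. Control 3 stood far apart for HDAC2, at 738, 741 and 327 CPM in the controls and 629, 590 and 574 CPM in the knockouts. The opposite held for RBBP7, at 488, 515 and 1025 CPM in the controls and 628, 681 and 582 CPM in the knockouts. Without control 3 all 7 were called, beside 65.6% of all genes tested in that fit, with ING1, RBBP4, RBBP7 and SAP18 higher and HDAC1, HDAC2 and SAP130 lower.

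Among 16 factors that bring SIN3 to DNA or act beside it on chromatin, 3 fell and 13 were not called, beside 16.6% of all tested genes called. PHF12, a PHD-finger partner of SIN3B, had a log2 fold change of -0.60 (edgeR adjusted p = 0.0145), and KLF11, a zinc-finger repressor that docks on SIN3A, one of -0.45 (edgeR adjusted p = 0.0455). MXD1, of the MAD family, had the largest of the 3 at -1.02, with an edgeR adjusted p just inside the threshold of 0.05. Its CPM were 25.4 and 26.1 in controls 1 and 2, 13.2 in control 3, and 11.1, 11.0 and 9.83 in the knockouts, so control 3 was near the knockouts. MXD3, MXD4 and MXI1, of the same family, were not called with all 6 libraries (log2 fold changes 0.01, -0.22 and 0.35). PHF12 measured 57.2 CPM in control 3 and 37.1 to 43.1 CPM in the knockouts, and KLF11 15.0 CPM in control 3 and 10.3 to 11.3 CPM in the knockouts. Without control 3 the log2 fold changes were -0.68 for PHF12, -0.48 for KLF11 and -1.31 for MXD1. Without knockout 1, 2 or 3 the edgeR adjusted p was 0.0945, 0.0731 and 0.0757 for PHF12, 0.181, 0.144 and 0.204 for KLF11, and 0.171, 0.150 and 0.183 for MXD1. Without control 1 or 2 it was 0.0570 and 0.0637 for PHF12, 0.103 and 0.147 for KLF11, and 0.134 and 0.151 for MXD1. The list's median log2 fold change was -0.03. Without control 3, 13 of the 16 were called, beside 65.6% of all genes tested: KDM5A, MXI1, OGT and TET1 were higher, and FOXK1, KLF11, MNT, MORF4L1, MXD1, MXD4, PHF12, REST and TGIF1 were lower. FOXK2, KLF10 and MXD3 were called in neither fit.

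**Figure D5:**
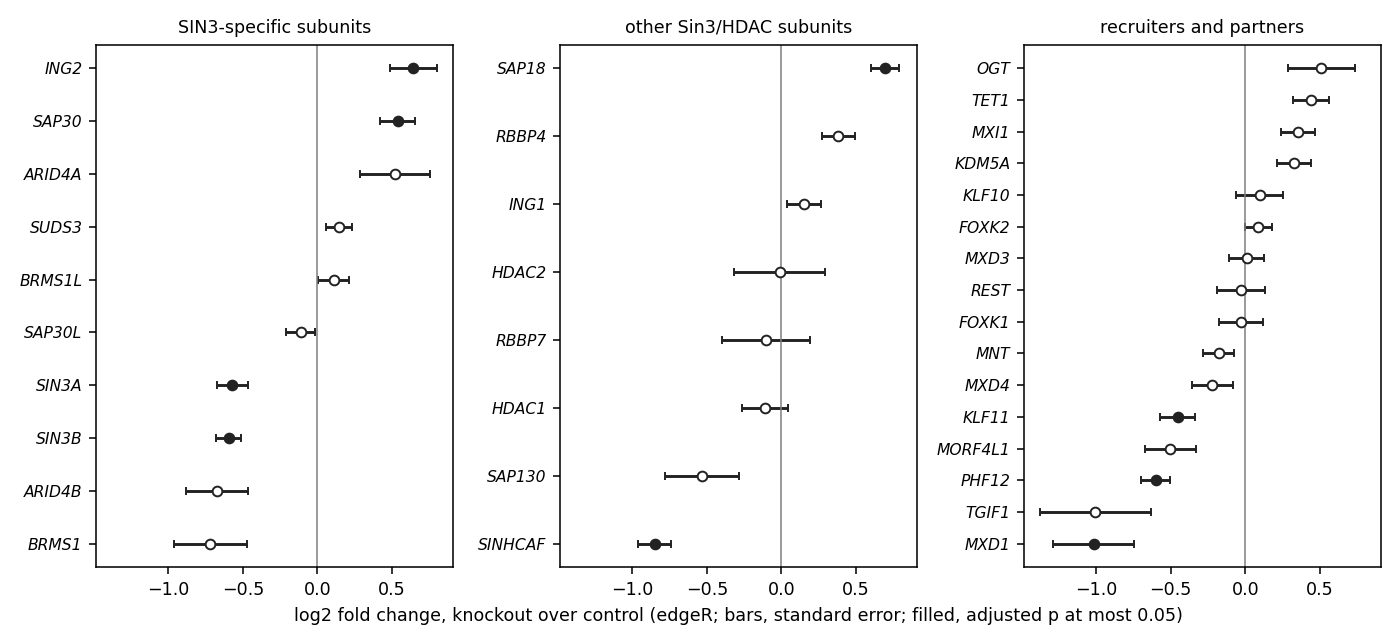
Log2 fold change, knockout over control, from edgeR over 6 libraries for the SIN3-specific subunits, the other Sin3/HDAC subunits with the targeted gene SINHCAF, and the recruiters and partners (bars are standard errors, filled circles have an adjusted p of at most 0.05). SAP18 is the only filled point to the right of 0 outside the first panel, and PHF12, KLF11 and MXD1 are the filled points to the left in the third.

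SIN3B had the smallest p of the 10, and the tested genes whose pattern over the 6 libraries was most like it were sought by the root mean square difference of centred log2 CPM. The 5 closest were UBE2D3P2 (0.0220), YJU2B (0.0249), BCL11A (0.0259), OVGP1 (0.0295) and COG7 (0.0304), against a median of 0.444 over all tested genes. SIN3A came at rank 172 of 20991 with 0.0839, so the pattern of its paralogue was close but not among the closest. All 6 libraries are shared by these genes, and the likeness is a description.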

How the data were processed

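Control libraries (3) and FAM60A-knockout libraries (3) were grouped by their labels. The authors deposited raw whole-number counts for each Ensembl gene. Sources differ on their making: the submitters' processing notes list STAR 2.7.10b, featureCounts 2.0.0 and hg38, the labels' protocol names hg19, and the methods give Trimmomatic and Salmon on hg38 for poly(A)-selected libraries with strand kept. The annotation release is not given in the sources used here. Of the 62754 genes, 60878 were matched to a symbol. Depth was 88361827 to 93346824 counts per library.

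The members and gene lists were chosen with earlier results of these data known. Counts were tested with edgeR 4.0.16 in R 4.3.3, using filterByExpr (minimum count 10), TMM and its quasi-likelihood F-test (two-sided), with Benjamini-Hochberg adjustment over 20992 genes. A gene was called where the adjusted p did not exceed 0.05. The methods name limma, so limma-voom was an alternative. Intervals are 95% and used the fit's 6.44 degrees of freedom. Paralogue ratios used counts plus 0.5 and two-sided exact permutation tests. The fit was also run on simulated counts, with larger changes than the subunits showed and no outlying library. That run does not bear on the calls reported here.

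Alternatives were DESeq2 1.42.0, limma-voom (limma 3.58.1) with quantile normalization, RLE size factors, library size without TMM, no filter, at least 10 counts in every library, leaving out each library and the replicate number as a block. The ratios of SUDS3 and of SINHCAF to the scaffolds, the exon-union length and setting the fit without control 3 beside each count were chosen after seeing the data. Deviations of same-numbered libraries correlated at -0.04 to 0.03. Control 3 stood far from the other controls, so these values cannot show whether replicate numbers paired libraries. Lists were the other Sin3/HDAC subunits, the recruiters and partners, and markers of HEK293 and of other cells. The recruiters and partners numbered 16 after 1 gene, not reported here, was left out. All members and every other gene of these lists called with all 6 libraries or without control 3 were named. So were genes overlapping a member, pseudogenes of a member or of SINHCAF, at most 2 of a member's neighbours, and the 5 genes most like SIN3B. Positions and transcript lengths came from GENCODE v44 on GRCh37, and upstream sequences from RefSeq on GRCh38.p14, where all 10 members had an entry. Protein sequences, raw reads, proteomic and chromatin data were not analysed here. Python 3.11.15, numpy 2.4.6, pandas 2.3.3, scipy 1.17.1 and matplotlib 3.10.9 were used.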

Additional observations from a re-analysis of the deposited data

How the results depend on the processing

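Over the 13 alternatives for each of the 10 subunits, 130 values in all, 95 kept their direction and side of the threshold, 27 lost the call, 7 gained it and 1 changed sign (BRMS1L, log2 fold change -0.000521 with library size without TMM, a scaling that moved the median over all genes from -0.008 to -0.117). Of the 10 subunits, 4 were called with all 6 libraries, 4 with RLE size factors, limma-voom or at least 10 counts in every library, 6 with DESeq2 (BRMS1 and ARID4B added) and 3 with library size without TMM (SIN3A, SIN3B and ARID4B). Without a filter the number was 2. A replicate block left 0 calls, with 7 subunits at an unadjusted edgeR p of at most 0.05. Leaving out 1 library gave 0 to 8 calls, with 8 without control 3, 1 (SIN3B) without control 1, and 0 in the other 4 fits, where 4 or 5 subunits had an unadjusted edgeR p of at most 0.05. Over all genes those fits called 167 (without knockout 1) to 14221 (without control 3), against 3491 with all libraries, 2587 without a filter, 5144 by DESeq2 and 407 with the block. Of the genes called, 31.6% were higher with library size without TMM and 47.9% with TMM.

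Of the other 7 tested Sin3/HDAC subunits, 1 was called with all libraries, 0 with the block and 0 to 7 leaving out 1 library. Of the 16 recruiters and partners, 3 were called with all libraries, 5 by DESeq2, 1 without a filter, 0 with the block and 0 to 13 leaving out 1 library. The log2 fold change of HDAC2, -0.01 with all libraries, was 0.00464 by limma-voom, 0.0791 with the block and -0.339 to 0.162 leaving out 1 library. That of RBBP7 was -0.313 to 0.297, the highest without control 3. The log2 ratio of SIN3A to SIN3B differed by -0.0264 to 0.108 between groups leaving out 1 library. A block cannot change a difference of means in this balanced design, so it left the 5 ratio differences as they were. The cause of these changes was not tested. Each fit that leaves out a library also has fewer samples. Nothing in the labels says whether replicate numbers pair libraries, so what the calls lost under the block mean is not known. Every subunit had 755 counts or more in each library, and what limited precision was not tested.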
